A study of Mus musculus with 8 samples.

Results

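Transcripts of 5 nuclear genes that supply or use NAD and NADPH in liver mitochondria were followed in 8 mouse livers. They are Slc25a51, Nadk2, Slc25a13, Decr1 and Aass, and each was found by its symbol in a deposited count table of 55416 rows. They were chosen for their function among the rows that lie on 3 stretches of the genome, because row names were found to match the counts there and not over most of the table. Earlier results of these data were known when they were chosen, with Slc25a51 and Aass among the smallest p values seen. The stretches hold 1429 rows, of which 557 are protein coding. The stretches were chosen by the mean counts of the rows on them, so the high counts of the 5 genes are part of how they were chosen and are given as a description.

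All 8 mice were on the MCD diet, which in its usual sense lacks methionine and choline and brings on steatohepatitis. One group of 4 mice was Sost-/-, with both Sost alleles marked as null. The other group of 4 was SostPB/-, with 1 allele marked null, as in the first group, and 1 allele marked PB, a term the labels do not explain. The product of Sost is sclerostin, a secreted protein that holds back Wnt signalling, and the question posed is what more of it does to steatohepatitis. The labels give no age, sex or strain of the mice, nor the tissue that the PB allele acts in. Poly-A RNA of whole liver was sequenced, 1 library per biological replicate, so fewer cells of a type and less RNA per cell cannot be told apart.

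NAD carries electrons from fuel oxidation to the respiratory chain, and its phosphorylated form NADP, once reduced to NADPH, drives reductions and antioxidant defence. The inner mitochondrial membrane does not let these nucleotides pass freely, so the matrix pool depends on a carrier for NAD, on a kinase that makes NADP inside the matrix, and on shuttles that move reducing power as metabolites. In liver this pool serves fatty acid oxidation, amino acid breakdown and the supply of aspartate to the urea cycle. Slc25a51 encodes the carrier that brings NAD into the matrix. Nadk2 encodes the mitochondrial NAD kinase. Slc25a13 encodes citrin, the aspartate-glutamate carrier of the malate-aspartate shuttle in liver. Decr1 encodes the mitochondrial dienoyl-CoA reductase, which uses NADPH to oxidise polyunsaturated fatty acids. Aass encodes the enzyme of the first steps of lysine breakdown, whose reductase part uses NADPH. In people, loss of NADK2 is known to impair both of these NADPH-using enzymes.

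Libraries held 9578086 to 14932773 counts. Mitochondrially encoded transcripts took 47.4% to 59.2% of counts in Sost-/- and 54.7% to 64.3% in SostPB/-. This moves the share left for nuclear genes, and its part in the results below was not tested beyond the other scalings given beside them. The row named Sost (chromosome 11, 101962458 to 101967015) held 0 counts in all 8 libraries. It lies outside the 3 stretches, so it says nothing of Sost RNA and does not check the genotype labels. Of the 12 hepatocyte markers listed, the 8 on the stretches were all detected, and their summed level was 17623 to 21248 CPM in Sost-/- and 20707 to 22527 CPM in SostPB/-. CPM stands for counts per 1000000 counts of a library, scaled by the TMM method. The same sum was 92.7 to 177 and 103 to 169 CPM for Col1a2 and Col15a1 of stellate cells and fibroblasts, and 6.37 to 17.8 and 6.51 to 16.7 CPM for Cd72 and Pax5 of B cells. The endothelial marker Cav1 had 8.26 to 11.8 and 8.75 to 13.04 CPM, and the T cell marker Il7r 53.0 to 88.1 and 39.9 to 65.7 CPM. No macrophage marker of the list lay on the stretches. Of the cholangiocyte markers only Cftr did, with a mean of 10.6 counts, too few to enter the test.

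The position of each gene, on GRCm38 by the GENCODE M21 annotation, bears on whether its row can be read. Slc25a51 lies on chromosome 4 (45395923 to 45408766, minus strand), with 5510 exonic bases in 5 blocks. Its nearest protein-coding neighbours were Exosc3 and Dcaf10 on one side, with means of 431 and 1171 counts. On the other side were Shb with 1129 and Aldh1b1, a mitochondrial aldehyde dehydrogenase, with 4330. Farther off, Tomm5, of the import pore of the outer mitochondrial membrane, had a mean of 840.0 counts and Hint2, a mitochondrial nucleotide hydrolase, 845. Both were picked from the 19 of 45 short genes around Slc25a51 that reached 100 counts, as described below. A microRNA gene inside the exons of Slc25a51, Gm25692, shares 125 exonic bases with it. Decr1 lies on the same chromosome (15917240 to 15945507, minus strand), next to Calb1, which had a mean of 4.63 counts, and Nbn, a DNA repair gene, with 1725. Slc25a13 (6041218 to 6217173) and Aass (23072173 to 23132986) lie on the minus strand of chromosome 6. Slc25a13 has Dync1i1, which encodes a dynein subunit, on one side with a mean of 1.00 count and Sem1, a proteasome component, on the other with 1284. Beyond these were Pdk4 with 21118 and Dlx6 with 0.125. Aass lies between Ptprz1, with a mean of 9.38 counts, and Fezf1, with 0. Beyond these were Fam3c with 1985 and Cadps2 with 398.

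Nadk2 (chromosome 15, 9071260 to 9110891, plus strand) lies closest to the edge of a stretch, 0.971 Mb inside it. Nadk2 itself had a mean of 7182 counts. Its neighbours towards the edge, Ranbp3l and Slc1a3, had means of 19.8 and 0.75 counts, and those on the other side, Skp2 and Lmbrd2, had 138 and 3658. Outside the edge Wdr70, the nearest protein-coding gene, had a mean of 11.4 counts. Farther out the counts were mixed, with 361 for Lifr, 665 for Rictor, 612 for Dab2 and 59.4 for C9, a complement protein made by hepatocytes. No other protein-coding gene or antisense gene shares exons with any of the 5 genes in this annotation.

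How well counts and positions match around each gene was described by moving the exons of up to 200 rows around each gene by up to 1.5 Mb and correlating the log count of a row with the number of its moved bases that fell on exons of protein-coding genes. The stretches were chosen for this match, so the correlations describe it and are no independent check of the names. The correlation at the annotated position was 0.64 around Slc25a51, 0.73 around Nadk2, 0.71 around Slc25a13, 0.68 around Decr1 and 0.64 around Aass. Beyond 50 kb it reached at most 0.56, 0.66, 0.51, 0.55 and 0.55 in the same order. The best shift was 150 to 250 bp in size around Slc25a13, Decr1 and Aass. It was 11250 bp around Slc25a51, with a correlation of 0.68, and 7700 bp around Nadk2, with 0.76, so these rows are placed less closely. At a shift of 11250 bp 45 protein-coding genes of the window would lie wholly off their own span, and 19 of these reached 100 counts under their names. Over the whole chromosome 4 stretch 195 of 354 protein-coding rows (55.1%) did. Moved exons can also fall on other genes, so this count does not settle the placement. Moved by the best shift of its window, Slc25a51 would keep 1112 of its 5510 exonic bases on its own exons and Nadk2 209 of 5118. Even at the small shifts Aass would keep 956 of 3817, Slc25a13 1504 of 3798 and Decr1 2339 of 3879. In the window of Nadk2 4 protein-coding genes were shorter than the best shift, and 0 of them reached 100 counts.

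Slc25a51, the NAD carrier, had lower values in SostPB/- livers, a difference that did not pass the main test. Sost-/- replicates 1 to 4 had 605, 415, 768 and 614 CPM. SostPB/- replicates 1 to 4 had 379, 398, 258 and 234 CPM. The groups did not overlap, but Sost-/- replicate 2 and SostPB/- replicate 2, the nearest pair, were 415 and 398 CPM. The means were 600.4 ± 145 and 317 ± 83.3 CPM (SD, n = 4), a ratio of 0.529. The log2 fold change was -0.92 (SE 0.23, 95% interval -1.44 to -0.40) with an unadjusted p of 0.00249, and edgeR's adjusted p over all 10020 rows tested was 0.540.

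DESeq2, run on the same counts, put Slc25a51 past the threshold, with a log2 fold change of -0.91 (SE 0.24) and an adjusted p of 0.0316. The adjusted p ran from 0.0316 to 0.999 over the 18 other settings tried, and all except DESeq2 were above 0.05. Over these settings the log2 fold change stayed between -1.11 and -0.78. The setting that used a second deposited table holds the same counts, so it repeats the main fit and is no separate check. Among all rows, edgeR called 0 of 10020 (0%), while 646 (6.45%) reached p under 0.05 before adjustment, 347 of them (3.46%) with the lower values in SostPB/-. DESeq2 called 53 of 12666 (0.418%). The 4 CPM values of SostPB/- lay wholly below those of Sost-/- in 219 of the 10020 rows (2.19%), and in 10 of the 456 tested rows on the stretches, also 2.19%. Of the 5 genes, 2 showed this and also reached p under 0.05 before adjustment, Slc25a51 and Aass. Both had been seen among the smallest p values of these data before the 5 were chosen, so this count supports nothing.

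The order of the groups for Slc25a51 held with other denominators. As counts per 1000000 of all counts, the range was 452 to 871 in Sost-/- and 213 to 389 in SostPB/-. With the mitochondrially encoded rows left out of the total, it was 934 to 1724 and 549 to 902.

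**Figure D1:**
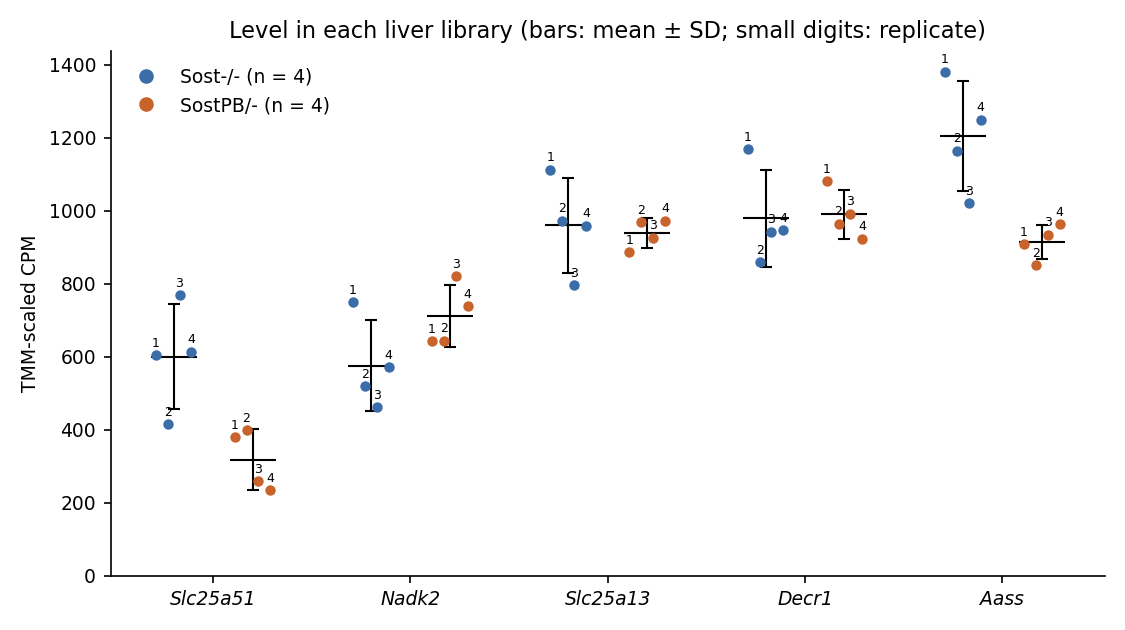
Level of each of the 5 genes in TMM-scaled CPM (vertical axis from 0) in every library. Points are libraries with their replicate number, and bars are mean ± SD of 4 libraries. The 4 SostPB/- points lie below the 4 Sost-/- points for Slc25a51 and Aass and are mixed with them for Nadk2, Slc25a13 and Decr1.

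Nadk2, the kinase that turns mitochondrial NAD into NADP, had a higher mean in SostPB/- with overlapping groups. Sost-/- replicates 1 to 4 had 749.9, 520.2, 461 and 570.5 CPM, and SostPB/- replicates 1 to 4 had 643, 644, 821 and 739 CPM. Sost-/- replicate 1 lay among the SostPB/- values, and the other 3 Sost-/- libraries lay below all of them. The means were 575 ± 125 and 712 ± 85.7 CPM (SD, n = 4). On the log2 scale the difference was 0.31 (SE 0.18, 95% interval -0.08 to 0.70, edgeR adjusted p = 0.899). Without Sost-/- replicate 1 it was 0.46 (SE 0.15, edgeR adjusted p = 0.503), and with library totals alone as the scaling 0.13.

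Slc25a13, the aspartate-glutamate carrier, had similar means in both groups. Sost-/- replicates 1 to 4 had 1113, 973, 795 and 959 CPM, and SostPB/- replicates 1 to 4 had 886, 968, 926 and 973 CPM. The SostPB/- libraries all fell within the range of the Sost-/- ones. The means were 960.2 ± 130.02 and 938 ± 40.8 CPM (SD, n = 4), with a log2 fold change of -0.03 (SE 0.14, edgeR adjusted p = 0.990). The 95% interval of -0.34 to 0.28 still allows a change of that size in either direction.

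Decr1, the NADPH-dependent reductase of fatty acid oxidation, gave the same picture. Sost-/- replicates 1 to 4 had 1168, 859, 943 and 947 CPM, and SostPB/- replicates 1 to 4 had 1081, 965, 992 and 923 CPM. All SostPB/- values again lay inside the Sost-/- range. The means were 979 ± 132 and 990.4 ± 66.8 CPM (SD, n = 4), with a log2 fold change of 0.02 (SE 0.14, 95% interval -0.30 to 0.33, edgeR adjusted p = 0.995).

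Aass, the first enzyme of lysine breakdown, was lower in every SostPB/- library than in any Sost-/- library. Sost-/- replicates 1 to 4 had 1381, 1164, 1021 and 1249 CPM, and SostPB/- replicates 1 to 4 had 908, 852, 935 and 963 CPM. The nearest pair was Sost-/- replicate 3 with 1021 and SostPB/- replicate 4 with 963 CPM. The means were 1204 ± 151 and 914 ± 47.4 CPM (SD, n = 4), a ratio of 0.759. The log2 fold change was -0.40 (SE 0.14, 95% interval -0.70 to -0.09) with an unadjusted p of 0.0155, and edgeR's adjusted p was 0.687, so it did not pass either. With mitochondrially encoded rows left out of the total the groups were 2290.4 to 3006 and 1928 to 2263, still without overlap. DESeq2 gave an adjusted p of 0.334, the lowest of the 18 other settings.

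**Figure D2:**
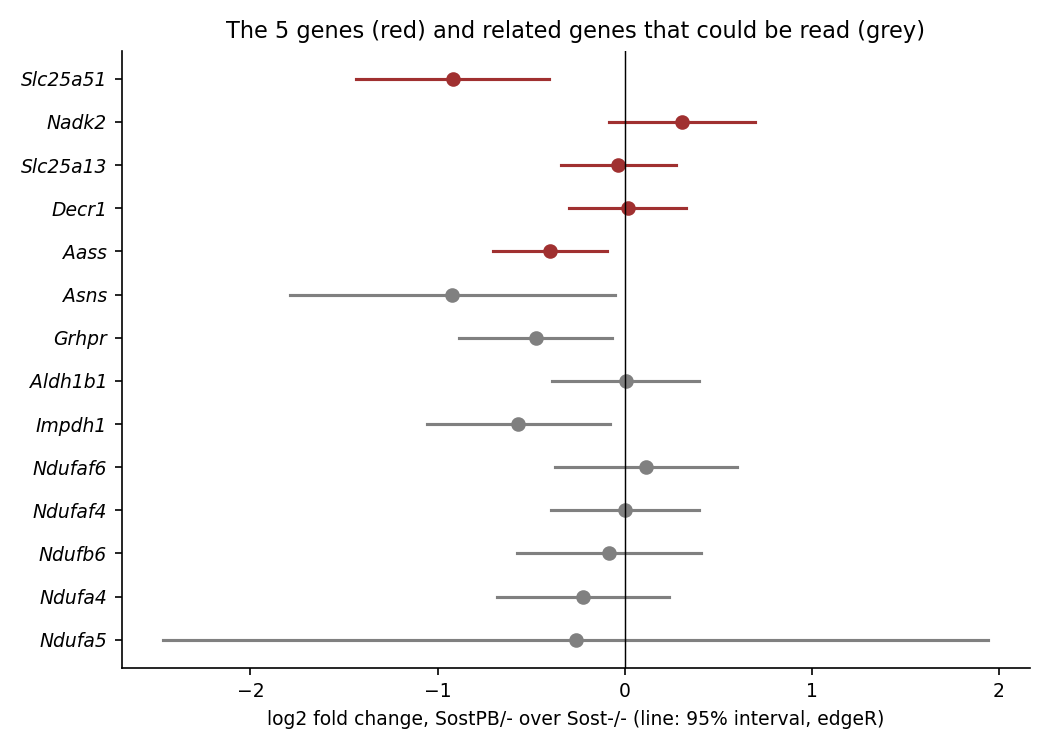
Log2 fold change of SostPB/- over Sost-/- (horizontal axis; points) with edgeR's 95% interval (lines) for the 5 genes in red and for the other genes of the NAD and NADPH lists that lie on the 3 stretches in grey. The intervals of Slc25a51 (-1.44 to -0.40) and Aass (-0.70 to -0.09) lie below 0, and those of Nadk2, Slc25a13 and Decr1 include 0. Among the grey genes the intervals of Asns, Grhpr and Impdh1 also lie below 0. No adjusted p over all rows was under 0.05.

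The spread between mice differed among the 5 genes. The coefficient of variation of Slc25a51 was 24.1% in Sost-/- and 26.2% in SostPB/-. For Nadk2 it was 21.7% and 12.04%. For Slc25a13, Decr1 and Aass it was 13.5%, 13.5% and 12.5% in Sost-/- and 4.35%, 6.74% and 5.19% in SostPB/-. The median over the 167 protein-coding genes on the stretches with a mean of at least 1000 counts was 16.2% and 13.1%. Slc25a51 was thus the only one of the 5 above this median in both groups. Counting error was small beside this spread, at most 2.12% of the value, in the library with 2221 counts of Slc25a51.

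Levels can be compared between genes only per length, here as CPM per kilobase of exon, with the exons of all annotated transcripts merged. Nadk2 has 13 annotated transcripts and Slc25a51 6, against 5 for Slc25a13, 4 for Aass and 3 for Decr1. The rows of Nadk2 and Slc25a51 are also those placed less closely. The part of either in the order below was not tested. In Sost-/- Aass had 315 ± 39.6, Slc25a13 253 ± 34.2, Decr1 252 ± 34.1, Nadk2 112 ± 24.4 and Slc25a51 109 ± 26.3 CPM per kilobase (SD, n = 4). In SostPB/- the order was Decr1 with 255 ± 17.2, Slc25a13 with 247 ± 10.7, Aass with 239 ± 12.4, Nadk2 with 139 ± 16.7 and Slc25a51 with 57.6 ± 15.1 CPM per kilobase (SD, n = 4). In both groups the ranges of Aass, Slc25a13 and Decr1 overlapped, and the lowest value of these 3 genes in any library, 209, lay above the highest Nadk2 value, 160.5. Nadk2 and Slc25a51 overlapped in Sost-/- but not in SostPB/-, where the lowest Nadk2 value was 126 and the highest Slc25a51 value 72.3. Means over the 8 libraries put Aass at the 95.9th percentile, Decr1 at the 95.4th, Slc25a13 at the 94.8th, Nadk2 at the 88.9th and Slc25a51 at the 82.6th among the tested protein-coding genes on the stretches. Aass was the highest of the 5 in 4 of 4 Sost-/- libraries. In SostPB/- Decr1 was the highest in 2 libraries and Slc25a13 in 2. Slc25a51 was the lowest in 7 libraries, and in Sost-/- replicate 3 Nadk2 was.

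Ratios of counts within a library do not depend on how libraries are scaled. The log2 ratio of Slc25a51 to Nadk2, NAD carrier to NAD kinase, was -0.31, -0.33, 0.74 and 0.11 in Sost-/- replicates 1 to 4. In SostPB/- replicates 1 to 4 it was -0.76, -0.69, -1.67 and -1.66. The groups did not overlap, and their means of 0.05 ± 0.50 and -1.20 ± 0.54 (SD, n = 4) differed by -1.25. This was the largest of the 10 differences between pairs, since the 2 genes differed in opposite directions. The log2 ratio of Slc25a51 to Decr1 was -0.73 ± 0.34 and -1.68 ± 0.34, also without overlap. Its ratios to Slc25a13 (difference -0.90) and to Aass (difference -0.53) overlapped. The difference in the ratio to Aass was -0.33 without Sost-/- replicate 3.

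The ratios of Slc25a13, Decr1 and Nadk2 to Aass varied less within each group than those of Slc25a51. The log2 ratio of Slc25a13 to Aass, both on chromosome 6, was -0.33 ± 0.05 in Sost-/- and 0.04 ± 0.10 in SostPB/- (SD, n = 4). It ran from -0.38 to -0.26 and from -0.04 to 0.19, so the groups did not overlap. The ratio of Decr1 to Aass, the 2 NADPH-using enzymes, was -0.30 ± 0.15 and 0.11 ± 0.14, and that of Nadk2 to Aass -1.08 ± 0.13 and -0.37 ± 0.13. Neither overlapped. Other genes behaved in the same way: of 162 further protein-coding genes on the stretches with at least 1000 mean counts, 73 (45.1%) had a ratio to Aass that was higher in all SostPB/- libraries, and 67 (41.4%) had such a ratio to Slc25a51. The separation is therefore not particular to the partners named here.

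**Figure D3:**
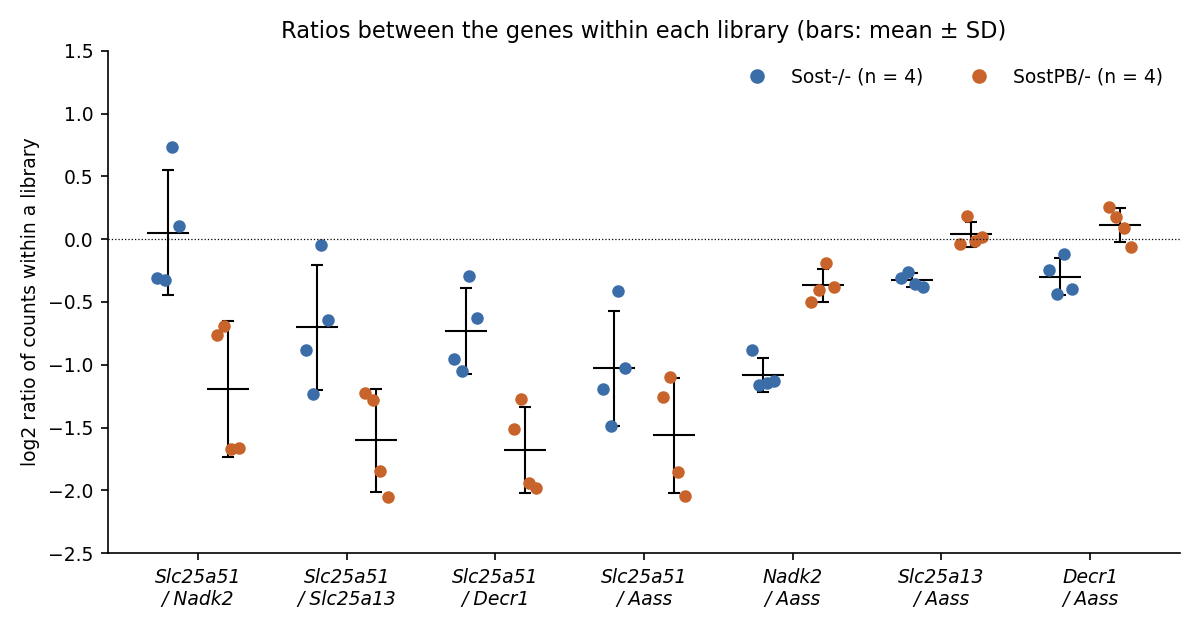
Log2 ratio of counts of 2 genes within each library (vertical axis), for Slc25a51 over each of the other 4 genes and for Nadk2, Slc25a13 and Decr1 over Aass. Points are libraries and bars are mean ± SD of 4. The groups are apart for Slc25a51 over Nadk2 (0.05 against -1.20) and over Decr1, and for the 3 ratios to Aass.

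Few other genes of these pathways could be read. Of 16 genes of NAD synthesis, 14 of NAD consumption and 7 of cytosolic NADPH supply, 0 lay on the stretches. Of the 12 genes of NADP and mitochondrial NADPH supply only Nadk2 did, and of the 12 of mitochondrial NADPH use only Decr1 and Aass. Of 47 rows of the mitochondrial carrier family 2 did, Slc25a51 and Slc25a13. For lysine breakdown, fatty acid oxidation and the malate-aspartate and glycerol phosphate shuttles the only gene on the stretches was Aass, Decr1 and Slc25a13 respectively. The related genes outside were not read, so nothing is said of them.

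Asns, the asparagine synthetase that draws on aspartate, had a mean of 59.2 ± 30.0 CPM in Sost-/-, against 31.2 ± 12.6 CPM in the SostPB/- group (SD, n = 4), and the groups overlapped. It stood at -0.92 on the log2 scale (SE 0.39, adjusted p = 0.748 in edgeR). Of the other NAD- or NADP-linked enzymes, 3 were tested and 0 passed. Grhpr, which uses NADPH or NADH to reduce glyoxylate and hydroxypyruvate, went from 342 ± 65.7 to 246 ± 44.0 CPM between the means (SD, n = 4), or -0.48 on the log2 scale (SE 0.19, edgeR adjusted p = 0.721). Impdh1, an NAD-dependent enzyme of guanine nucleotide synthesis, was at -0.57 (SE 0.22, edgeR adjusted p = 0.721). Aldh1b1 was at 0.01 (SE 0.18). Before adjustment edgeR's p was 0.0396 for Asns, 0.0266 for Grhpr, 0.0265 for Impdh1 and 0.974 for Aldh1b1. Over all 10020 rows 6.45% reached such a p under 0.05, and 3.46% did so with the lower values in SostPB/-.

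Complex I of the respiratory chain oxidises the NADH of the matrix, and 5 of 46 nuclear genes listed by symbol as its subunits and assembly factors lay on the stretches. Of these 0 passed in edgeR, and 0 reached p under 0.05 before adjustment. Their median log2 fold change was -0.08, or -0.04 without Ndufa4, which is now assigned to cytochrome oxidase, against -0.01 over all rows tested and -0.01 over protein-coding rows on the stretches. Ndufa4 was at -0.22 (SE 0.21), Ndufb6 at -0.08 (SE 0.22), and the assembly factors Ndufaf4 and Ndufaf6 at 0.00 (SE 0.18) and 0.11 (SE 0.22). Ndufa5 had a log2 fold change of -0.26 with a standard error of 1.00, because its row held 0 counts in SostPB/- replicate 2.

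For each of the 5 genes the most alike patterns over the 8 libraries were sought among 326 protein-coding genes on the stretches with a mean of at least 50 counts, by Pearson's r of log2 CPM. These are descriptions over 8 points that include the difference between groups. Closest to Slc25a51 was C9orf72, a regulator of membrane traffic (r = 0.97), at 309 ± 109 CPM in the Sost-/- group against 143 ± 47.0 in the SostPB/- group (SD, n = 4). Next came Tex10 (r = 0.88) and Pdk4, a kinase that restrains pyruvate oxidation (r = 0.87). Values of the groups overlapped for C9orf72, Tex10 and Pdk4. Closest to Aass were Retreg1, a receptor for turnover of the endoplasmic reticulum (r = 0.95), Gne, the rate-limiting enzyme of sialic acid synthesis (r = 0.89), and the ubiquitin-conjugating enzyme gene Ube2h (r = 0.81). Retreg1 had 468 ± 53.2 and 340.1 ± 19.2 CPM without overlap, and Gne 1052 ± 99.8 and 827 ± 95.9 CPM with overlap (SD, n = 4).

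Nadk2 was most like Mrpl50, of the mitochondrial ribosome (r = 0.97), Car8 (r = 0.96) and Fsbp (r = 0.93). Mrpl50 stood at 252 ± 49.5 CPM in the Sost-/- group against 291 ± 18.9 in the SostPB/- group (SD, n = 4), and the groups overlapped. Slc25a13 was most like the paraoxonase gene Pon3 (r = 0.91), Tmem106b (r = 0.90) and Ptbp3 (r = 0.90). Decr1 was most like Bag1, a co-chaperone (r = 0.95), Cct5, a subunit of the cytosolic chaperonin (r = 0.87), and Ndufaf6 (r = 0.84). None of the 5 genes was among the 3 most alike genes of another.

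**Figure D4:**
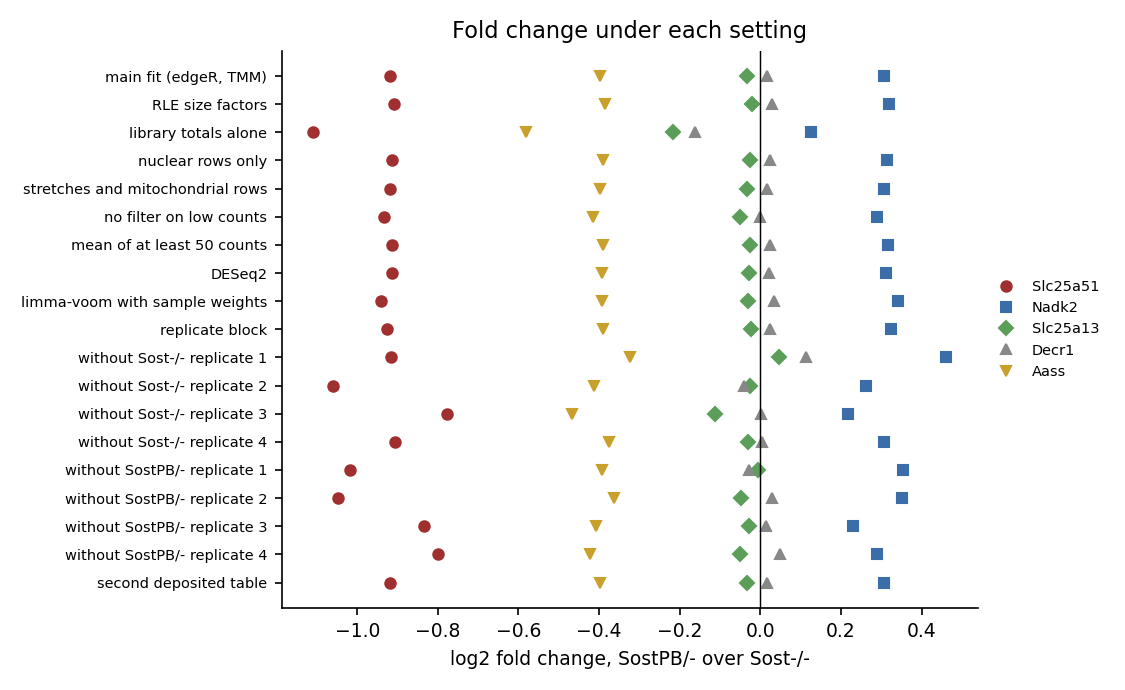
Log2 fold change of SostPB/- over Sost-/- (horizontal axis) of each of the 5 genes under the main test and each of 18 other settings (rows), with 1 symbol per gene. Slc25a51 stays between -1.11 and -0.78 and Aass between -0.58 and -0.32, Nadk2 stays above 0, and Slc25a13 and Decr1 lie on both sides of 0. The second deposited table holds the same counts and repeats the main fit.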

How the data were processed

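Liver RNA from 4 Sost-/- and 4 SostPB/- mice was captured by poly-A with a TIANSeq kit, per the labels' protocols. Tools named, per the submitters' processing notes, were HISAT2, StringTie and DESeq2, with build mm10. Annotation release and strand setting: not given in the sources used here. The authors deposited whole-number counts per row, and a second table of 22883 rows whose normalized signal the authors made by dividing those counts by 1 size factor per library (0.782 to 1.24; 100% of values whole within 0.001 and, for rows with a unique symbol, 100% equal to the counts after multiplication). Groups came from titles, columns from descriptions. No 2 libraries of a group agreed within sampling noise (chi-square per degree of freedom at least 23.6).

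The main test was edgeR's (version 4.0.16, R 4.3.3): rows kept by filterByExpr, TMM, glmQLFit, glmQLFTest, Benjamini-Hochberg over all rows tested, threshold 0.05. The standard error is the log2 fold change over the square root of F. Positions and exon lengths came from GENCODE M21 by ID without version, which 52083 rows matched. Alternatives were DESeq2 1.42.0, limma 3.58.1 with voom, RLE, totals, other row sets and filters, the second table, the replicate block and leaving out each library. Scripts were tested on simulated data. The genes and lists were chosen with earlier results of these data known. The text names the 5 genes, list genes on the stretches (up to 10 per list), the 3 most alike genes of each, and neighbours; Tomm5, Hint2 and the genes outside the chromosome 15 edge were picked after their values were seen. The ratio background was added after seeing the data.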

Additional observations from a re-analysis of the deposited data

Results flagged for a closer look

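Of 48 sets of 4 values examined, for the 5 genes, the related genes and the ratios between the 5, 5 sets held a library far from the rest of its group by the gap to its nearest neighbour over the group's range, where chance gives about 1 in 20. The row of Ndufa5, a complex I subunit, was at 0 CPM in SostPB/- replicate 2 and at 131 to 156 CPM in the other 3 SostPB/- libraries. Grhpr was high in SostPB/- replicate 1, at 311 CPM against 217 to 229 in its group. Ndufaf4 was high in Sost-/- replicate 1, at 289 CPM against 207 to 219, and Ndufb6 in Sost-/- replicate 3, at 96.3 CPM against 62.04 to 66.3. The log2 ratio of Nadk2 to Aass was high in Sost-/- replicate 1, at -0.88 against -1.16 to -1.13. The level of none of the 5 genes was set apart in this way in either group.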

How the results depend on the processing

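Over all rows edgeR called 0, and the count was 2 with no filter on low counts, 1 with rows of at least 50 mean counts, 1 with limma-voom, 53 with DESeq2 and 0 to 4 when 1 library was left out. Slc25a51 passed only with DESeq2 (log2 fold change -0.91). With 1 library left out it ran from -1.06 to -0.78 and Aass from -0.47 to -0.32. Decr1 turned negative with library totals alone (-0.16) and with no filter (-0.00017), and ran from -0.041 to 0.113 with 1 library left out; Slc25a13 ran from -0.112 to 0.046 in the same way. The cause was not tested. Library totals alone moved the median of all rows by -0.19, and relative to that shift no gene of the 5 turned. With the replicate block the log2 fold changes were -0.93 for Slc25a51, 0.32 for Nadk2, -0.02 for Slc25a13, 0.02 for Decr1 and -0.39 for Aass. The block called 0 rows. Same-numbered libraries correlated at -0.14 to 0.07 in their deviations, and other pairs at -0.11 to 0.12. With 4 libraries per group this shows no pairing of mice by number but cannot exclude it. The labels state no pairing, so the block was kept as an alternative. With 1 library left out, the difference in the log2 ratio of Slc25a51 ran from -1.41 to -1.02 to Nadk2, from -1.08 to -0.68 to Slc25a13, from -1.08 to -0.80 to Decr1 and from -0.69 to -0.33 to Aass. Each of the 5 genes had at least 2221 counts in every library, a counting error of at most 2.12%.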
